A study of Mus musculus with 49 samples.

Results

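Deletions of 3 to 19 bases with no more than 1 base of microhomology were described in the TRIP cell line after Cas9 targeting with sgRNA1, sgRNA2 or sgRNA3. They were selected on the measured lesion itself, as reads with a single deletion whose lost bases could be placed at 1 or 2 start positions on the consensus of the wild-type reads with the same product, so that 1 start position means no microhomology and 2 mean 1 base of it. They made up 86230 of the 577722 reads of 36 integrated reporters (IRs), in 664 alleles when the alleles of each guide are counted separately. The cell line, EStTA-PB-B-18, is 1 sorted mES (mouse embryonic stem) cell clone of medium EGFP level, from EBRTcH3 cells that express the transactivator tTA from ROSA26, and holds 36 PGK-driven EGFP reporters, each with its own barcode. The cells received a plasmid for Cas9 and 1 guide together with an mCherry plasmid and were sorted for mCherry. The paper elsewhere calls this mCherry plasmid a PB (piggyBac) transposase plasmid. Assays were done in triplicate, but replicates were merged in the deposited data, so there is 1 sample per guide, no uncut control, and no spread between cultures. Guides were therefore compared by size, by the SD over IRs and by the number of IRs with a direction, without a test. The labels of sgRNA1 and sgRNA2 carry a common number, and their consensus had 80 bases. The label of sgRNA3 carries another number, and its consensus had 67 bases. Differences between sgRNA3 and the other guides cannot be told apart from whatever this number marks. IRs share a clone and a library and are not replicates. The reads at an IR numbered 2105 to 11160 with sgRNA1, 1581 to 9618 with sgRNA2 and 1873 to 11481 with sgRNA3.

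Cas9 cuts both strands of a target next to the PAM, a short motif that it needs for binding. Broken ends are mostly rejoined by non-homologous end joining (NHEJ), which can trim or fill in bases before ligation, while microhomology-mediated joining resects the ends and pairs short repeats on either side, so that a repeat copy and the bases between are lost. A deletion without any microhomology has a unique position, while each base of microhomology adds a placement that gives the same product.

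The 3 targets are shown first, 5′ to 3′ on the strand of the guide, with the PAM in capitals. Nucleotides are numbered upstream of the PAM from 1, and the expected cut lies between nucleotides 3 and 4 (3|4). The side away from the PAM is called PAM-distal and the other PAM-proximal. The targets of sgRNA1 and sgRNA2 lie on opposite strands of the same stretch of EGFP, with cuts 15 bases apart in the same reads.
sgRNA1 target: gccgagagtgatcccggcggCGG
sgRNA2 target: cgccgggatcactctcggcaTGG
sgRNA3 target: agtgtcacctaaatcgtatgCGG

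The alleles that the results turn on are shown as the target, its PAM and the next 4 bases, with the lost bases in capitals. Where an allele has 2 placements, 1 of them is shown.
sgRNA1, 5 bases: gccgagagtgatCCCGGcggcggtcac
sgRNA1, 4 bases: gccgagagtgatcCCGGcggcggtcac
sgRNA1, 10 bases: gccgagaGTGATCCCGGcggcggtcac
sgRNA2, 4 bases: cgccgggatcactCTCGgcatggacga
sgRNA2, 6 bases: cgccgggatcactcTCGGCAtggacga
sgRNA2, 3 bases on the PAM side: cgccgggatcactctcgGCAtggacga
sgRNA3, 4 bases, end at 4|5: agtgtcacctaaATCGtatgcggccgc
sgRNA3, 3 bases: agtgtcacctaaaTCGtatgcggccgc
sgRNA3, 6 bases: agtgtcacctaAATCGTatgcggccgc
sgRNA3, 4 bases, end at 3|4: agtgtcacctaaaTCGTatgcggccgc

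Deletions of 3 to 19 bases with 0 or 1 base of microhomology were more frequent with sgRNA2 and sgRNA3 than with sgRNA1. Their mean share of the reads of an IR was 10.8% ± 2.34 (SD over 36 IRs) with sgRNA1, with a lowest value of 4.95%, a median of 10.7% and a highest of 16.2%. With sgRNA2 it was 17.6% ± 3.82, from 7.98% over a median of 17.3% to 25.0%. With sgRNA3 it was 16.1% ± 3.76, from 6.33% over a median of 16.3% to 23.2%. The share was higher with sgRNA2 than with sgRNA1 at 36 of 36 IRs, by 6.78 percentage points (SD over IRs 1.97), and higher with sgRNA3 than with sgRNA1 at 36 of 36, by 5.32 points (SD 2.15). Between sgRNA2 and sgRNA3 the difference was smaller than its SD over IRs, 1.94 points, and sgRNA2 was higher at 27 IRs and sgRNA3 at 9. Pooled over IRs, 21431 of 198078 reads with sgRNA1 were of this kind (95% Wilson interval 10.7 to 11.0%), 30029 of 169141 with sgRNA2 (17.6 to 17.9%) and 34770 of 210503 with sgRNA3 (16.4 to 16.7%). These intervals cover counting error only, since the reads carry no molecular identifiers. The fewest such reads at an IR were 153, 199 and 207 with sgRNA1, sgRNA2 and sgRNA3.

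The difference from sgRNA1 depends on which deletions are counted. For those that touch or span the cut, the mean share of reads was 9.92% with sgRNA1, 15.7% with sgRNA2 and 10.4% with sgRNA3, so that sgRNA3 came near sgRNA1. With only 1 start position, that is without any microhomology, it was 3.41%, 11.3% and 10.1%, since 68.2%, 36.0% and 37.2% of the pooled reads had 2 start positions.

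The order of the guides also depends on the denominator. Of the mutated reads of an IR, these deletions were 20.9% ± 2.84 with sgRNA1, 32.8% ± 4.20 with sgRNA2 and 24.2% ± 4.54 with sgRNA3 (mean ± SD over 36 IRs), and sgRNA2 was above sgRNA3 at 36 of 36 IRs. Here sgRNA3 was above sgRNA1 at 31 IRs and below it at 5, by a mean of 3.37 points (SD over IRs 3.18). Of reads with a single deletion of any size they were 23.1%, 41.5% and 42.2%, and between sgRNA2 and sgRNA3 the IRs were split 17 to 19. Of all deletions of 3 to 19 bases they were 30.6% ± 3.31 with sgRNA1, 67.5% ± 3.40 with sgRNA2 and 60.7% ± 5.40 with sgRNA3. Deletions of the same size with 2 or more bases of microhomology took 24.1% of reads with sgRNA1, 8.37% with sgRNA2 and 10.2% with sgRNA3, so that the ratio of deletions with 0 or 1 base to those with 2 or more was 0.444, 2.11 and 1.59 (means over IRs). With sgRNA1, a single 3-base deletion in the GC-rich repeat that spans the cut took 37659 reads. This deletion has 7 placements and lies outside the rule.

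The rule limits the lost stretches to 3 to 19 bases, and sizes are compared only within these limits. Deletions of 20 bases or more took 4.25%, 5.26% and 3.44% of the pooled reads with sgRNA1, sgRNA2 and sgRNA3. Over the reads pooled from all IRs, the median size of the lost stretches was 7 bases with sgRNA1, 6 with sgRNA2 and 5 with sgRNA3. Their mean size was larger with sgRNA1 than with either other guide at 36 of 36 IRs. Deletions of 3 to 19 bases with 2 or more bases of microhomology had median sizes of 3, 12 and 6 bases. The order of the guides in size therefore applies within the rule only. Sizes of 3 to 6 bases made up 45.6% of the reads of this kind with sgRNA1, 56.4% with sgRNA2 and 62.4% with sgRNA3. Sizes of 15 to 19 bases made up 11.1%, 6.55% and 8.65%. The distributions had different peaks. With sgRNA1, 4 and 5 bases held 19.3% and 19.7% of the reads, and only 1.84% had 3 bases, while 37660 further 3-base deletions there had 2 or more bases of microhomology. With sgRNA2, sizes 3 to 7 each held between 13.4% and 16.9%. With sgRNA3, 4 bases alone held 32.5%, followed by 3 bases with 14.3% and 6 bases with 11.3%. Sizes that are a multiple of 3 made up 21.0% with sgRNA1, 35.6% with sgRNA2 and 34.8% with sgRNA3. Among deletions of 3 to 19 bases with 2 or more bases of microhomology they made up 98.3%, 52.2% and 23.0%. This order of the guides thus also applies within the rule only.

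Each deletion was then put in 1 of 3 kinds, with an end at the 3|4 cut, spanning it, or away from it, and alleles with 2 placements were weighted equally over both. With sgRNA1, 36.1% ± 2.18 (SD over IRs) had an end at the cut, 49.3% ± 3.14 spanned it and 14.5% ± 2.03 lay away from it. With sgRNA2 the values were 40.9% ± 2.49, 46.3% ± 3.71 and 12.9% ± 2.29. With sgRNA3 they were 24.8% ± 3.21, 33.6% ± 4.07 and 41.6% ± 5.27. The share away from the cut was thus 3.24-fold that of sgRNA2 and 2.86-fold that of sgRNA1, and higher than with either at 36 of 36 IRs. A single allele away from the cut, the 4-base loss of sgRNA3 with its end at 4|5, held a mean of 21.0% over IRs. The order of sgRNA1 and sgRNA2 in ends at the cut depends on how alleles with 2 placements, 68.2% of the reads with sgRNA1, are counted. With alleles of 1 placement only, 42.4% had an end at the cut with sgRNA1, 57.5% with sgRNA2 and 21.6% with sgRNA3, and with any placement counted in full 58.9%, 44.8% and 36.0%.

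Deletions away from the cut stayed next to it, in reads pooled over IRs. With sgRNA3, 94.1% of them left exactly 1 base between the cut and the lost stretch, and with sgRNA1 and sgRNA2 82.2% and 72.5%. Only 6.26%, 6.44% and 1.64% of them began 3 or more bases from the cut with sgRNA1, sgRNA2 and sgRNA3, which is 0.908%, 0.814% and 0.677% of all deletions of this kind. With sgRNA3 the end on the PAM side lay at 4|5 in 38.6% of the reads and at 3|4 in 19.9%, and 4|5 was ahead at 36 of 36 IRs. A single allele, the loss of nucleotides 5 to 8, held 21.1% of the reads, so the pooled lead of 4|5 rests on this allele. Among the sgRNA3 reads with 1 placement it held 33.7%. With sgRNA1 the end on the PAM side was at 3|4 in 28.4% and at 4|5 in 9.98%, and with sgRNA2 in 33.2% and 7.10%, with 3|4 ahead at 36 of 36 IRs for both. Among alleles with 1 placement, where no weighting enters, the shares at 4|5 and 3|4 were 51.8% and 14.4% with sgRNA3, 8.86% and 50.9% with sgRNA2, and 11.7% and 26.8% with sgRNA1. In these alleles 4|5 was ahead at 36 of 36 IRs with sgRNA3 and 3|4 at 36 of 36 with sgRNA2, while with sgRNA1 3|4 was ahead at 34, 4|5 at 1, and 1 IR was even. Counting both sites, 50.8%, 51.5% and 68.3% of the reads had an end at 3|4 or 4|5 with sgRNA1, sgRNA2 and sgRNA3.

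The end that faces away from the PAM was also concentrated at some sites, in part as the other end of leading alleles. With sgRNA3 it lay at 8|9 in 29.4% of the reads and at 7|8 in 12.6%. The loss of nucleotides 5 to 8, with 21.1% of the reads, makes up most of those at 8|9. With sgRNA2 this end was spread from 6|7 to 9|10, with 17.2% at 7|8 as the most frequent site, and with sgRNA1 7|8 held 20.7%.

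More bases were lost on the PAM-distal side of the cut than on the PAM-proximal side with all 3 guides. The PAM-distal side held 62.9% ± 3.13 (SD over IRs) of the lost bases with sgRNA1, 67.3% ± 2.15 with sgRNA2 and 74.8% ± 4.07 with sgRNA3, and it was above 50% at each of the 36 IRs with each guide. The lowest IR was at 53.0%, 63.3% and 65.0% in the same order. Over pooled reads, a mean of 5.17 PAM-distal and 3.05 PAM-proximal bases were lost with sgRNA1, 4.54 and 2.22 with sgRNA2, and 5.20 and 1.70 with sgRNA3, so the guides differed more in the bases lost towards the PAM. Deletions with all lost bases on the PAM-distal side made up 40.2%, 43.6% and 60.8%, and those with all on the PAM-proximal side 10.5%, 9.59% and 5.53%. Their ratio was 3.83, 4.54 and 11.0. The higher ratio with sgRNA3 includes its deletions away from the 3|4 cut. For deletions that touch or span the cut, the PAM-distal share of lost bases was 62.2%, 64.3% and 64.8%. Deletions with an end at the cut lost PAM-distal bases in 28.4%, 33.2% and 19.9% of the reads of this kind. They lost PAM-proximal bases in 7.82%, 7.32% and 5.14%. The 2 guides that cut the same stretch of EGFP face in opposite directions, and each lost more bases on its own PAM-distal side.

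Short and long deletions differed in asymmetry. At 3 to 6 bases 79.2%, 68.8% and 87.6% of lost bases were PAM-distal with sgRNA1, sgRNA2 and sgRNA3, against 44.4%, 52.6% and 62.4% at 15 to 19 bases. The decrease was stepwise with sgRNA1 and sgRNA3, while sgRNA2 had its highest value, 75.9%, at 7 to 10 bases. Ends at the cut were also rarer in the longest deletions than in the shortest, from 43.7%, 51.7% and 26.9% to 9.52%, 4.55% and 9.54%, while the share that spanned the cut was 86.2%, 90.7% and 78.4% in the longest. With sgRNA3 ends at the cut were most frequent at 7 to 10 bases, at 29.9%.

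Few alleles held most of the reads. There were 237 alleles with sgRNA1, 230 with sgRNA2 and 197 with sgRNA3, of which the 10 most frequent held 51.4%, 50.8% and 62.7% of the reads, and 10, 10 and 5 alleles were enough for 50%. A median of 85.5, 87.0 and 82.5 alleles were seen at an IR. Alleles seen at all 36 IRs numbered 14, 22 and 10 and held 55.4%, 72.9% and 59.0% of the reads. At the other end, 40, 43 and 16 alleles were seen at a single IR, with 49, 62 and 37 reads in all.

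With sgRNA1, the most frequent allele was the loss of 5 bases shown above, with 3339 reads (15.6% of the reads of this kind, Wilson interval 15.1 to 16.1%), followed by the loss of 4 bases with 2831 (13.2%). Both have 2 placements, of which 1 has its end at the 3|4 cut and the other spans it by 1 base, so they cannot be assigned to either kind. The 5-base loss was the most frequent allele at 25 of 36 IRs. The other 8 of the 10 had 393 to 967 reads. Among these, the losses of 6, 7, 9, 10 and 11 bases all have a placement that starts at nucleotide 4 and runs in the PAM-distal direction, so that they share an end and differ in length. The most frequent allele with only an end at the cut was the 10-base loss with 689 reads, from nucleotide 4 to 13. The most frequent that only spanned the cut had 4 bases and 532 reads, and the most frequent that lay only away from it had 3 bases, nucleotides 5 to 7, and 309 reads.

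With sgRNA2, reads were spread more evenly over the leading alleles, and 6 of the 10 had a unique position. The loss of 4 bases from nucleotide 4 to 7 came first with 2497 reads (8.32%, 8.01 to 8.63%) and was the most frequent at 27 of 36 IRs. The losses of 3, 5, 6 and 7 bases that begin at the same nucleotide 4 had 1690, 1662, 1182 and 1571 reads, so that a ladder of 5 sizes with a common end at 3|4 was among the 10. The loss of 6 bases over the cut had 1731 reads and was the most frequent of those that spanned it. Those of 7, 5 and 3 bases that spanned the cut had 1704, 1366 and 944. The only allele of the 10 on the PAM side alone lost nucleotides 1 to 3 and had 911 reads. The most frequent allele away from the cut, with 4 bases, had 541 reads.

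With sgRNA3, the loss of 4 bases from nucleotide 5 to 8, with its end at 4|5, had 7345 reads (21.1%, 20.7 to 21.6%) and was the most frequent allele at 32 of 36 IRs. It was 3.49% of all reads of the assay and has a single placement. The loss of 4 bases 1 nucleotide closer to the PAM, from 4 to 7 with the end at 3|4, had 1618 reads (4.65%), and it was the most frequent with only an end at the cut. These alleles have the same size and differ by a shift of 1 base, and their intervals did not overlap (4.44 to 4.88% for the latter). The loss of 3 bases had 4149 reads (11.9%) and can be placed at either site. The loss of 6 bases had 2795 (8.04%), and the most frequent that only spanned the cut lost 4 bases and had 1856. Losses of 5, 6 and 10 bases that also begin at nucleotide 5 had 977, 622 and 872 reads. A loss of 8 bases from nucleotide 4 to 11 had 981 reads. Leading alleles of sgRNA3 thus formed a series of sizes at each site, with the losses of 3, 4, 6 and 8 bases having a placement that ends at 3|4 and those of 3, 4, 5, 6 and 10 bases one that ends at 4|5. The last of the 10, a loss of 8 bases over the cut, had 591 reads.

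The reads of some alleles held more than a clean deletion. In the 3-base loss with sgRNA3, 1261 of 4149 reads (30.4%) had a substitution in the 2 bases on either side of the deletion, against 0.424% of wild-type reads at the same bases. In the 5-base loss at nucleotides 5 to 9 it was 135 of 977 reads (13.8%) against 0.737%. The other 8 of the 10 with sgRNA3 had 0 to 3.01%. Among the 10 of sgRNA1 this share was 0.838 to 25.1%, with 1.50 to 16.1% in wild-type reads, and among the 10 of sgRNA2 1.61 to 25.0%, with 4.27 to 15.3%. Compared at its own bases, the allele had a higher share than wild-type reads for 5 of the 10 with sgRNA1, 7 with sgRNA2 and 9 with sgRNA3. With sgRNA2 the differences from wild-type reads went in both directions, and the largest of each were in the loss of 5 bases over the cut, with 25.0% against 10.2%, and in the loss of 7 bases from nucleotide 4, with 1.97% against 15.3%. The alleles named for substitutions were singled out after their values were seen. Over all reads of this kind, the 10 bases on either side matched the consensus in 65.1% with sgRNA1, 67.0% with sgRNA2 and 89.5% with sgRNA3, while wild-type reads matched at the same bases of the 10 leading alleles in 73.9 to 87.4%, 71.8 to 78.7% and 98.7 to 99.3%. Of the 41 bases of the read around the cut, the one with the lowest agreement was base 43 with sgRNA1 and sgRNA2, where 86.0% and 85.9% of wild-type reads carried the consensus base, and with sgRNA3 the lowest agreement among 41 such bases was 99.4%. Single alleles could be lower, as the 7-base loss of sgRNA1 matched in 35.4% of its 967 reads, against 82.3% of wild-type reads at the same bases, and the 3-base loss of sgRNA1 away from the cut in 28.2% of its 309 reads. These were also chosen after their values were seen. Restricting to reads that match on both sides raised the share with an end at the cut to 38.9% with sgRNA1 and 44.6% with sgRNA2.

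The overlapping targets allowed the same lost bases to be looked up in the other assay. The 10 leading alleles of sgRNA1 had 11023 reads there (5.56% of all reads) and 28 reads in the sgRNA2 assay (0.0166%), and the 10 of sgRNA2 had 15258 reads (9.02%) and 25 in the sgRNA1 assay (0.0126%). The 4-base loss that leads with sgRNA2 had 3 reads of 198078 with sgRNA1, and the 5-base loss that leads with sgRNA1 had 7 of 169141 with sgRNA2. In all, 89 alleles occurred in both assays, which is 37.6% of the alleles with sgRNA1 and 38.7% of those with sgRNA2. They held 59.4% and 69.1% of the reads of this kind in their own assay, while deletions that reached only the cut of the other guide made up 0.378% and 0.609% of the reads of this kind.

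Reads of sgRNA1 and sgRNA2 begin with 1 of 4 main pairs of leading bases, and the forward primers carried different index sequences, though the reaction that each pair marks is not given in the sources used here. The share of these deletions was 10.7 to 11.0% over the 4 pairs with sgRNA1 and 17.6 to 17.9% with sgRNA2, and the share with an end at the cut 35.8 to 36.7% and 40.5 to 40.9%.

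Across IRs, the share of these deletions varied more than counting gives. The SD over IRs was 5.37, 6.59 and 7.50 times the SD from binomial counting with sgRNA1, sgRNA2 and sgRNA3, and the highest IR was 3.26, 3.13 and 3.66 times the lowest. IRs kept much of their order between guides. Over 36 IRs, the share with sgRNA1 had a Pearson's r of 0.907 (Spearman's rho 0.854) with that of sgRNA2, and of 0.851 (0.787) with that of sgRNA3. For sgRNA2 against sgRNA3 r was 0.870 (0.845). Leaving out the pair of IRs most distant from the median gave 0.907, 0.803 and 0.787. These are descriptions, since the IRs share a clone and a library, and the share is part of the mutation frequency, with which it had an r of 0.827, 0.870 and 0.800 (rho 0.760, 0.761 and 0.709; r 0.726, 0.784 and 0.645 without the 2 IRs). As a share of mutated reads, r between guides was 0.794, 0.722 and 0.783 in the same order (rho 0.787, 0.653 and 0.764), and 0.778, 0.639 and 0.688 with such a pair left out. As a share of deletions of 3 to 19 bases it was lower, 0.241, 0.514 and 0.351 (rho 0.291, 0.559 and 0.510), and with such a pair left out 0.219, 0.562 and 0.574, so that the value for sgRNA2 and sgRNA3 rests in part on BC_2 and BC_36.

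The pattern at the cut had lower r between guides than the share of reads. In the same order of guide pairs, r of the share with an end at the cut was 0.168, -0.209 and -0.300 (rho 0.234, -0.183 and -0.384), and r of the PAM-distal share of lost bases 0.101, 0.282 and 0.195 (rho -0.0296, 0.313 and 0.189). Without the 2 IRs most distant from the median, r was 0.311, -0.336 and -0.442 for the first and -0.0810, 0.274 and 0.0246 for the second. The SD over IRs of the share with an end at the cut was 1.43, 1.37 and 2.45 times the counting SD. Single alleles varied most with sgRNA3, where the SD over IRs of the 10 was 1.86 to 3.64 times the counting SD, against 1.34 to 1.93 with sgRNA1 and 1.06 to 2.00 with sgRNA2. The leading 4-base loss took 21.0% ± 5.51 (SD over IRs) of the reads of this kind at an IR with sgRNA3, from 10.5% at BC_7 to 30.6% at BC_4.

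The IRs at the extremes were in part the same. BC_30 had the lowest share with sgRNA1 (4.95%, Wilson interval 4.24 to 5.78%) and sgRNA3 (6.33%, 5.55 to 7.22%), and BC_26 the lowest with sgRNA2 (7.98%, 7.09 to 8.98%). Each of them was the lowest or next to lowest of the 36 with all 3 guides, and neither has a mapped position, as for 9 of the 36 IRs. The highest share with sgRNA1 was 16.2% (15.2 to 17.1%) at BC_31, on chromosome 11 at position 3033098 of mm9, in an annotated exon of Sfi1, which spans 3031853 to 3093466 on the minus strand and encodes a centrin-binding protein of the centrosome. With sgRNA2 it was 25.0% (23.3 to 26.7%) at BC_35, on chromosome 3 at 123391370 in an intron of Ndst3, a heparan sulfate sulfotransferase gene. With sgRNA3 it was 23.2% (22.1 to 24.3%) at BC_32, on chromosome 13 at 35521093, between genes, with Cdyl as the nearest protein-coding gene at 230638 bp. These 3 IRs ranked among the 6 highest with each guide. BC_35 also had the highest mutation frequency of the 36 with each guide (62.5%, 64.1% and 76.1%). Of mutated reads, these deletions were 22.6%, 39.0% and 26.6% at BC_35, against medians of 20.7%, 33.1% and 24.2%. At BC_31 they were 29.4%, 38.5% and 32.0%, and at BC_32 24.1%, 38.3% and 32.4%.

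Values at the borders of the rule were as follows. Deletions of 2 bases with 1 or 2 start positions took 3.48%, 4.24% and 5.08% of reads with sgRNA1, sgRNA2 and sgRNA3, against 0.199%, 2.50% and 2.36% for 3 bases. The most frequent 2-base loss covered nucleotides 4 and 5 with sgRNA1 (4474 reads) and with sgRNA2 (5115), and nucleotides 5 and 6 with sgRNA3 (6178). Deletions of 19 bases took 0.261%, 0.218% and 0.356% of reads and those of 20 bases 0.121%, 0.160% and 0.167%, and the most frequent loss of 20 bases had 91, 63 and 88 reads. Deletions with 2 start positions took 7.38%, 6.38% and 6.15% of reads and those with 3 start positions 2.98%, 6.70% and 9.96%. The most frequent with 3 start positions lost 12 bases with sgRNA1 (1252 reads), 9 bases with sgRNA2 (3376) and 5 bases with sgRNA3 (9638), and those of sgRNA2 and sgRNA3 had more reads than the leading allele of the rule with the same guide. With 3 start positions allowed, sgRNA3 would lead with 25.9% of reads against 24.2% with sgRNA2 and 13.8% with sgRNA1.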

How the data were processed

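Genomic DNA of the cell line was amplified around the target sites and sequenced, with 1 sample per guide. The authors read out each barcode, ran a semi-global alignment against the unedited reporter, and deposited per read the barcode, lesion class, changed bases, position, aligned read and an alignment score, which is empty for most wild-type reads. Submitters' processing notes name the build mm9. Reads of the 36 barcodes were kept (198078, 169141 and 210503 of 203778, 174002 and 217969). The consensus was the most frequent base of wild-type reads, start positions were counted on it, and 1 read that ran past its end with sgRNA2 was left out. Shares have 95% Wilson intervals. Placement was tested on simulated data. Python 3.11.15, pandas 2.3.3, numpy 2.4.6 and scipy 1.17.1 were used, with gene annotation from GENCODE for mm9. Named were, per guide, the 10 most frequent alleles, the IRs of highest and of lowest share, the same deletions in the tables of sgRNA1 and sgRNA2, the leading allele of each kind and those just outside the rule. Alternatives covered the number of start positions, size, score, pooling, placement and cut site. The members and lists were chosen with earlier results of these data known. The reporter table holds 2 further count columns of another series, which were not used. Pool samples were not analysed here.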

Additional observations from a re-analysis of the deposited data

Results flagged for a closer look

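Reads with barcodes other than the 36 were not analysed, and they held such deletions too. They made up 11.1% of 5700 reads with sgRNA1 (Wilson interval 10.3 to 12.0%), 17.2% of 4861 with sgRNA2 (16.2 to 18.3%) and 17.2% of 7466 with sgRNA3 (16.4 to 18.1%), beside 10.8%, 17.8% and 16.5% of the pooled reads of the 36 IRs. Of these reads, 20.4%, 22.0% and 27.4% had a barcode within 1 mismatch of a listed barcode.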

How the results depend on the processing

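Of 54 alternatives, 13 left a value within its 95% interval for counting and 41 moved it further; values follow in the order sgRNA1, sgRNA2 and sgRNA3. The share of reads was 3.41%, 11.3% and 10.1% with only 1 start position, 13.8%, 24.2% and 25.9% with up to 3, 11.0%, 18.3% and 16.8% without low alignment scores, 10.6%, 15.1% and 13.8% for 4 to 19 bases, and 9.92%, 15.7% and 10.4% for deletions that touch or span the cut; pooled over IRs it was 17.8% and 16.5% with sgRNA2 and sgRNA3. The share with an end at the cut was 42.4%, 57.5% and 21.6% for alleles with 1 placement, 58.9%, 44.8% and 36.0% when any placement counts in full, and 14.6%, 11.2% and 43.6% for a cut between nucleotides 4 and 5. The PAM-distal share of lost bases was 62.2%, 64.3% and 64.8% for deletions that touch or span the cut, 57.8%, 75.8% and 77.5% for alleles with 1 placement, and 53.4%, 55.4% and 67.1% for a cut between 4 and 5; pooled it was 75.3% with sgRNA3. Restricting to reads that match the consensus beside the deletion, an alternative chosen after seeing the data, gave 38.9% and 44.6% with an end at the cut with sgRNA1 and sgRNA2, 68.9% PAM-distal with sgRNA2, and 52.4% and 63.8% of reads in the 10 leading alleles with sgRNA2 and sgRNA3. The PAM-distal share was above 50% in each alternative run. Changes that do not follow from the alternative's own construction were not tested for a cause. No paired analysis was possible because replicates were merged into 1 sample per guide; the labels of sgRNA1 and sgRNA2 carry a common number, that of sgRNA3 another, and what it stands for is not given. Reads without molecular identifiers limit the intervals to counting error, and 1 clone limits the results to its 36 positions.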
